A study of Mus musculus with 18 samples.

Results

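The genes described here are the 8 AP-1 subunits Fos, Fosb, Fosl1, Fosl2, Jun, Junb, Jund and Atf3, taken by symbol out of the 32285 genes counted in 18 RNA-seq libraries of mouse synovial fibroblasts. Synovial fibroblasts line and support the joint; here they were sorted from paws of wild-type (WT) mice, either arthritic or naive. Arthritis was K/BxN serum-induced (STIA), a joint inflammation set off by transferring serum of arthritic mice. The study asked how the cells respond to fibroblast growth factor 2 (FGF2, a fibroblast mitogen) and osteopontin (OPN, a matrix glycoprotein that binds integrins), FGF2 being given in culture at 10 ng/mL and OPN at 50 ng/mL, for 3 days. There were 6 groups of 3 libraries: STIA cells with OPN, STIA cells unstimulated, naive cells with FGF2 plus OPN, naive cells with FGF2, naive cells with OPN, and naive cells unstimulated. All groups share the WT genotype, and no group of STIA cells with FGF2 was analysed here. The comparisons with unstimulated naive cells share that group's libraries. Whether replicates are separate mice or cultures is not stated in the labels, so p-values measure only the spread between these libraries, which may be technical. How long unstimulated cells were cultured, and the antibodies and gate of the sort, are not given here.

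AP-1 is a transcription factor built as a dimer of basic leucine zipper proteins. Fos proteins must pair with a Jun protein to bind DNA, whereas Jun proteins can also pair with each other, and Atf3 is a stress-inducible relative that pairs with Jun proteins or with itself. Fos, Fosb, Junb and Atf3 are immediate early genes, switched on within minutes by ERK, JNK and serum response factor and held down by rapid decay of their mRNAs, while Jund is expressed more steadily. In the inflamed joint AP-1 is known for driving matrix metalloproteinase and cytokine genes in synovial fibroblasts.

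Library totals ran from 27527043 to 40357342 counts, and all 8 members passed the filter on low counts, their lowest library count being 114 (Atf3). Levels are given as CPM, counts scaled to a common library total with normalised library sizes, for which 3 counts correspond to 0.0743 to 0.109 CPM by plain totals, counting error only. Cell type markers are the exception: their CPM values use plain library totals throughout. Fibroblast RNA was present in every library, with the collagen gene Col1a1 at 3724 CPM or more and Vim at 4703 CPM or more. The macrophage genes Adgre1, C1qa and Itgam lay below 0.1 CPM in every group mean, as did the keratinocyte genes Krt5, Krt14 and Epcam. The other macrophage genes had group means of up to 0.153 CPM (Ptprc), 3.07 CPM (Csf1r), 4.27 CPM (Cd68), 9.80 CPM (Lyz2) and 44.9 CPM (Cd14). The macrophage list summed to 47.6 to 52.8 CPM with FGF2, where Cd14 was higher, and to 12.8 to 23.6 CPM in all other libraries. FGF2 replicate 2 lay farthest from the other replicates of its group, 0.416 away in log2 CPM as a root mean square over genes, where the other 17 libraries lay 0.294 to 0.363 away. It held the lowest Fos, Fosb, Fosl1 and Fosl2 and the highest Jun, Jund and Atf3 among the FGF2 libraries, so results that change without it are given with that value.

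On GRCm38 the Fos family genes lie at chr12:85473890-85477273 (Fos, plus strand), chr7:19302696-19310051 (Fosb, minus), chr19:5447547-5455946 (Fosl1, plus) and chr5:32135801-32157842 (Fosl2, plus). The Jun family genes lie at chr4:95049034-95052222 (Jun, minus), chr8:84974484-84978718 (Junb, minus) and chr8:70698949-70700616 (Jund, plus), and Atf3 lies at chr1:191170296-191218039 (minus). All 8 are annotated as protein coding. Exons of 4 members overlap a gene on the opposite strand, and since the strand setting of the counting is not given, reads there cannot be assigned to one strand with certainty. Ccdc85b shares 1163 of the 2033 exon bases of Fosl1, the antisense gene Junos shares 232 of 3189 with Jun, Prdx2 shares 173 of 2301 with Junb, and Gm11175, with 0 counts in every library, shares 877 of 1668 with Jund. The part of these genes in the member counts was not tested in any comparison.

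Promoter sequence is shown for the members with the largest falls under OPN (Fos, Fosb and Junb) and for Fosl2, a Fos family member with a small fall there. Each run is the 250 bases before the RefSeq transcription start on GRCm38.p6, read 5′ to 3′ on the gene's strand, at chr12:85473640-85473889 (Fos), chr7:19310046-19310295 (Fosb), chr8:84978749-84978998 (Junb) and chr5:32136222-32136471 (Fosl2). Capitals mark the TATA box letters TATAAA and TGACG, the core shared by cyclic AMP response elements.
Fos: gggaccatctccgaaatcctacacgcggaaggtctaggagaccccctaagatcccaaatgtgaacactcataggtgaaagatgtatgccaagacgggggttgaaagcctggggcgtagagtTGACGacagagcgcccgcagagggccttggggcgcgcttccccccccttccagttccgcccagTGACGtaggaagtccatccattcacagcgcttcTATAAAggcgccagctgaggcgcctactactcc
Fosb: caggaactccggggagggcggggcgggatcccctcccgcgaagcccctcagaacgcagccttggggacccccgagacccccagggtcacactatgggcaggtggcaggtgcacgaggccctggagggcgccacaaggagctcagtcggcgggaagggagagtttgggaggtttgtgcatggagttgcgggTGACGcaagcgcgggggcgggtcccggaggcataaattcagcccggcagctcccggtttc
Junb: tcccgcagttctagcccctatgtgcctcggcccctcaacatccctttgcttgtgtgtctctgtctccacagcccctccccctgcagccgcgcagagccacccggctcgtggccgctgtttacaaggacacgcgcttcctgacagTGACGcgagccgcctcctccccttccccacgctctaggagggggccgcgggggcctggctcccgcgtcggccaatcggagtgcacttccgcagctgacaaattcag
Fosl2: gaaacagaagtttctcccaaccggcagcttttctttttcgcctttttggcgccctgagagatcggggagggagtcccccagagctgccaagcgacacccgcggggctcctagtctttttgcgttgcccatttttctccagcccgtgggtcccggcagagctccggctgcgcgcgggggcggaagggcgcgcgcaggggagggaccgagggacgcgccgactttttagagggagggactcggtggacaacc
The Fos window held TATAAA at positions -33 to -28 from the start and TGACG at -129 to -125 and at -66 to -62. TGACG stood once in the Fosb window, at -60 to -56, and once in the Junb window, at -106 to -102. Among the windows not printed, that of Atf3 held it once, at -7 to -3 on the other strand, and those of Jun and Jund did not. Jun, Jund and Atf3 also fell with OPN. Searched on both strands, TATAAA occurred in 12.4% and TGACG in 17.8% of 32851 RefSeq promoter windows of this length; TGACG was chosen after the sequences were seen and is contained in TGACGTCA. The full cyclic AMP element TGACGTCA (1.55% of windows), the AP-1 element TGACTCA (4.46%) and the CArG box bound by serum response factor (1.47%) were not matched in any of the 7 member windows at hand. Sequence farther than 250 bases from the start was not searched, so these elements may still lie there. The Fosl2 window held none of these letters, and RefSeq windows matched 7 of the 8 members, all but Fosl1. The RefSeq start of Jund, 70697739, lies before the counted gene on its strand, and that of Atf3, 191183333, lies well inside it. The RefSeq start of Fosl2, 32136472, also lies inside its counted gene, and so does the whole printed Fosl2 window. The windows of Jund, Atf3 and Fosl2 may therefore not be the promoters of the counted transcripts.

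Among the Fos family, Fos itself was the most variable gene, with a highest group mean 16.6 times the lowest. Fos measured 255, 281 and 231 CPM in STIA cells with OPN and 276, 269 and 283 CPM in unstimulated STIA cells. In naive cells Fos measured 358, 409.8 and 425 CPM with FGF2 plus OPN, 118, 91.9 and 124 CPM with FGF2, 25.9, 23.5 and 22.5 CPM with OPN and 326, 306 and 315 CPM unstimulated. Every library of naive cells with OPN lay far below every other library, the FGF2 libraries came next, and only the STIA groups overlapped each other as neighbours in the order. Fosb, a close relative of Fos, measured 157, 201 and 130.3 CPM in STIA cells with OPN and 231, 217 and 143 CPM in unstimulated STIA cells. Fosb measured 184, 203 and 132 CPM with FGF2 plus OPN, 94.6, 50.6 and 92.7 CPM with FGF2, 12.4, 11.9 and 14.4 CPM with OPN and 153, 152 and 140.5 CPM in unstimulated naive cells. The lowest groups were the same as for Fos, whereas the 4 highest groups of Fosb overlapped their neighbours. Its highest group mean was 15.3 times its lowest.

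Fosl1 and Fosl2 encode Fos proteins without the strong transactivation domain of Fos. Fosl1 measured 15.2, 13.2 and 14.6 CPM in STIA cells with OPN and 18.2, 19.2 and 15.7 CPM in unstimulated STIA cells. In naive cells Fosl1 measured 12.3, 11.004 and 17.8 CPM with FGF2 plus OPN, 34.6, 28.6 and 36.2 CPM with FGF2, 10.7, 9.45 and 8.37 CPM with OPN and 9.34, 10.98 and 10.98 CPM unstimulated. FGF2 alone gave the highest Fosl1 libraries without overlap, and cells with OPN overlapped unstimulated naive cells at the low end. Fosl2 measured 317, 331 and 338 CPM in STIA cells with OPN and 291, 274 and 281 CPM in unstimulated STIA cells. In naive cells Fosl2 measured 409, 476 and 400.1 CPM with FGF2 plus OPN, 145, 124 and 145 CPM with FGF2, 339, 308 and 368 CPM with OPN and 446, 411 and 434 CPM unstimulated. Its lowest group was FGF2 alone, not OPN, with no overlap with any other group. Unstimulated naive cells overlapped FGF2 plus OPN at the top, and naive and STIA cells with OPN overlapped below them. The highest group mean was 3.48 times the lowest for Fosl1 and 3.12 times for Fosl2.

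Jun, the founding Jun protein and a target of JNK, measured 204, 218 and 181 CPM in STIA cells with OPN and 205, 197 and 212 CPM in unstimulated STIA cells. In naive cells Jun measured 282, 276 and 297 CPM with FGF2 plus OPN, 310.2, 396 and 321 CPM with FGF2, 99.2, 101 and 100 CPM with OPN and 199, 194 and 203 CPM unstimulated. Jun was highest with FGF2 alone and lowest with OPN alone, and the STIA groups and unstimulated naive cells overlapped between them. Junb, a Jun protein that can restrain Jun, measured 228, 248 and 228 CPM in STIA cells with OPN and 231, 229.7 and 249 CPM in unstimulated STIA cells. In naive cells Junb measured 392, 418 and 457 CPM with FGF2 plus OPN, 225, 224 and 201 CPM with FGF2, 119.9, 119 and 112 CPM with OPN and 271, 268 and 294 CPM unstimulated. FGF2 plus OPN stood highest and OPN alone lowest, both without overlap, and the STIA groups overlapped each other between them. Jund spanned the narrowest range, with a highest group mean 1.63 times the lowest, and each of its groups overlapped the next in order, from 67.8 ± 6.28 CPM in unstimulated naive cells at the top to 41.7 ± 3.90 CPM in naive cells with OPN (SD, n = 3 each). Atf3 had group means from 4.24 CPM in naive cells with OPN to 10.8 CPM in STIA cells with OPN, a 2.54-fold span. Its STIA groups overlapped each other at the top, and unstimulated naive cells overlapped FGF2 alone below them.

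**Figure D1:**
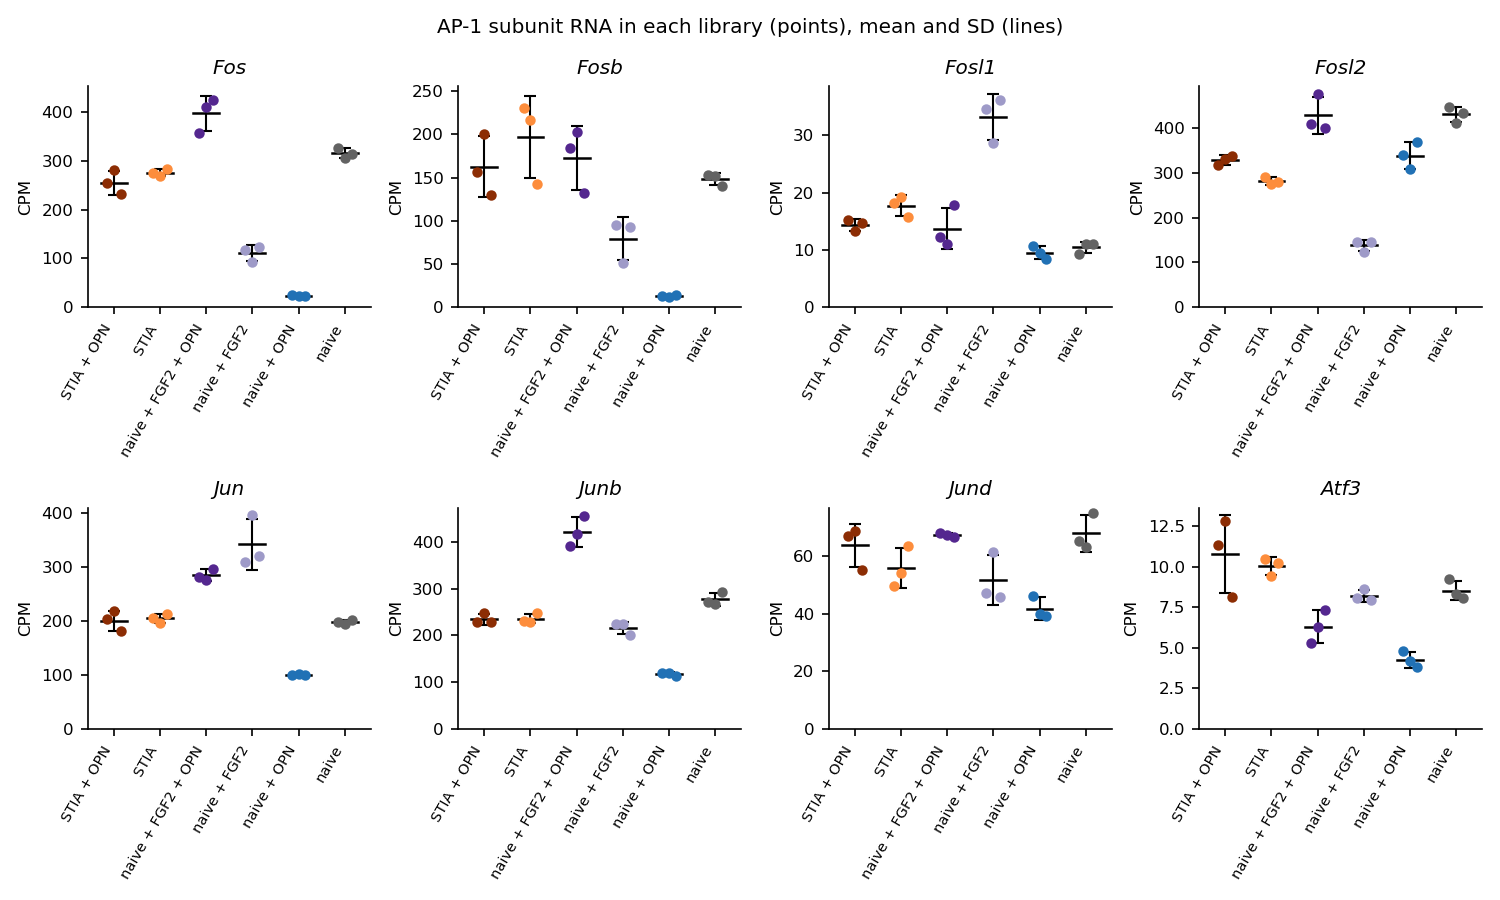
Level of each AP-1 subunit in CPM (vertical axis, from 0) in the 18 libraries by group; points are libraries, long lines group means and bars the SD (n = 3). Naive cells with OPN have the lowest mean for every subunit except Fosl2, and Fos lies at 22.5 to 25.9 CPM there against 306 to 326 CPM in unstimulated naive cells.

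OPN alone lowered Fos and Fosb to a small share of their level in unstimulated naive cells and lowered the Jun genes less. Of the 8 subunits, 0 rose and 7 fell; across all 15072 tested genes 15.2% rose and 16.5% fell, 31.7% in all. Fos averaged 23.9 ± 1.75 CPM with OPN and 316 ± 10.2 CPM without (SD, n = 3 each), a log2 fold change of -3.72 ± 0.10 (SE) and a 13.2-fold lower level (edgeR adjusted p = 2.25e-16). Fosb averaged 12.9 ± 1.29 CPM with OPN and 148 ± 6.95 CPM without, a log2 fold change of -3.53 ± 0.29 (edgeR adjusted p = 1.69e-06). By size of the fold change in either direction, Fos ranked 17 and Fosb 22 among all genes tested. In bulk RNA, fewer cells expressing a gene and less RNA per cell cannot be told apart.

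The other falls with OPN were smaller. Junb changed by -1.25 ± 0.07 on the log2 scale (edgeR adjusted p = 1.02e-11), Jun by -0.99 ± 0.08 (edgeR adjusted p = 4.78e-09) and Atf3 by -1.001 ± 0.15 (edgeR adjusted p = 2.83e-05). Jund fell by 0.70 ± 0.11 (edgeR adjusted p = 0.000120) and Fosl2 by 0.35 ± 0.08 on the log2 scale (edgeR adjusted p = 0.00129). Fosl1 gave a log2 fold change of -0.13 ± 0.15, with a 95% interval of -0.44 to 0.19 (edgeR adjusted p = 0.565). Of the falls, 4 were at least 2-fold (Fos, Fosb, Junb and Atf3), as were the called changes of 4.09% of all genes. For all 7 called subunits the OPN and unstimulated libraries did not overlap, a condition that 46.4% of all genes met. The median log2 fold change was -0.99 over the 8 subunits and 0.00 over all genes. Beside these falls, the summed CPM of 10 heat shock genes that mark cell dissociation was 3098 to 3318 with OPN and 3114 to 3220 without. The fibroblast markers summed to 50086 to 57923 CPM with OPN and 67450 to 75858 CPM without. Col1a1 averaged 26334 CPM with OPN and 35894 CPM without, and Col1a2, Col3a1, Pdgfra and Thy1 were also lower. Vim, Pdgfrb, Pdpn, Dcn and Fap had higher means with OPN. The macrophage markers summed to 16.3 to 20.2 CPM with OPN and 12.8 to 14.2 CPM without, with Lyz2 at 9.80 and 3.75 CPM and Cd14 at 3.58 and 5.85 CPM. The skeletal muscle markers summed to 11.1 to 12.3 CPM with OPN and 5.50 to 7.46 CPM without. Library totals were 30759870 to 40357342 counts with OPN and 29232126 to 32385299 without, and the mitochondrial share was 0.601% to 0.754% with OPN and 0.374% to 0.666% without; the part of these markers, of depth and of RNA quality in the falls was not tested.

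FGF2 alone raised Fosl1 and Jun and lowered the other Fos genes, Junb and Jund. Against unstimulated naive cells 2 rose and 5 fell, where 29.1% of all genes rose and 28.1% fell, 57.1% in all. Fosl1, known as a target of sustained ERK signalling, averaged 33.1 ± 4.02 CPM with FGF2 and 10.4 ± 0.947 CPM without, a log2 fold change of 1.67 ± 0.14 (edgeR adjusted p = 2.63e-09). Jun averaged 342 ± 47.0 CPM with FGF2 and 198 ± 4.38 CPM without, a change of 0.79 ± 0.08 (edgeR adjusted p = 6.33e-09). Both rises lie where an opposite-strand gene also rose: Junos stood at 26.7 ± 0.468 CPM with FGF2 and 2.26 ± 0.526 CPM without (log2 fold change 3.55 ± 0.18), and Ccdc85b at 62.5 ± 2.52 and 50.4 ± 7.03 CPM (log2 fold change 0.31 ± 0.08). Their part in the Jun and Fosl1 counts was not tested. The 10 fibroblast markers summed to 21725 to 23178 CPM with FGF2 and 67450 to 75858 CPM without. That sum is mostly collagen (Col1a1 averaged 4177 CPM with FGF2 and 35894 CPM without), and Vim (8943 against 4906 CPM), Pdpn (850.4 against 176), Pdgfra (407 against 308), Dcn (246 against 150) and Fap (10.4 against 9.73) had higher means with FGF2. Pericyte and smooth muscle markers summed to 395 to 708 CPM with FGF2 and 1242 to 1387 CPM without. Acta2 averaged 256 CPM with FGF2 and 994 CPM without, and Notch3, Mcam, Myh11, Abcc9 and Kcnj8 also had lower means with FGF2. Rgs5 went the other way, at 42.0 CPM with FGF2 and 2.16 CPM without, and Cspg4 averaged 260 CPM in both by plain totals. Heat shock genes summed to 3514 to 3930 CPM with FGF2 and 3114 to 3220 CPM without. The part of these markers and heat shock genes in the results was not tested either.

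Fosl2 and Fos fell with FGF2. Fosl2 averaged 138 ± 12.3 CPM with FGF2 and 431 ± 17.7 CPM without, a log2 fold change of -1.64 ± 0.08 (edgeR adjusted p = 2.03e-14). Fos changed by -1.51 ± 0.09 (edgeR adjusted p = 5.79e-12) and Fosb by -0.90 ± 0.26 (edgeR adjusted p = 0.00835). Junb fell by 0.36 ± 0.07 (edgeR adjusted p = 5.88e-05) and Jund by 0.40 ± 0.11 on the log2 scale (edgeR adjusted p = 0.00527), while Atf3 gave -0.06 ± 0.14 (edgeR adjusted p = 0.764). Without FGF2 replicate 2 all 7 calls held, with log2 fold changes of -1.39 for Fos, -0.66 for Fosb, 1.76 for Fosl1, -1.57 for Fosl2, 0.67 for Jun, -0.38 for Junb and -0.54 for Jund.

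Set directly against OPN, FGF2 gave higher levels of 7 subunits and a lower level of Fosl2, where 31.5% of all genes were higher, 30.1% lower and 61.6% called. The log2 fold change of FGF2 over OPN was 2.63 ± 0.28 for Fosb, 2.21 ± 0.10 for Fos, 1.79 ± 0.14 for Fosl1 and 1.77 ± 0.08 for Jun, with edgeR adjusted p-values of 2.85e-06, 2.41e-14, 7.14e-10 and 6.30e-15 in that order. Fosl2 went the other way, at 138 ± 12.3 CPM with FGF2 and 339 ± 30.0 CPM with OPN (log2 fold change -1.29 ± 0.08, edgeR adjusted p = 1.16e-12). Atf3 and Junb differed by 0.95 ± 0.15 and 0.89 ± 0.07 (edgeR adjusted p = 9.20e-06 and 6.18e-11). The opposite-strand genes Junos, Ccdc85b and Prdx2 were also higher with FGF2, by 3.43 ± 0.17, 0.59 ± 0.08 and 0.31 ± 0.07. Jund, at 0.30 ± 0.11 (edgeR adjusted p = 0.0262), overlapped between the groups. Its call was lost without FGF2 replicate 2 (log2 fold change 0.16, edgeR adjusted p = 0.197), OPN replicate 2 (0.27, 0.0812) or OPN replicate 3 (0.27, 0.0852), and with these groups fitted alone (0.30, 0.0573).

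Given together, FGF2 and OPN raised Junb, Jun, Fos and Fosl1 above the unstimulated level and lowered Atf3. Against unstimulated naive cells 4 rose and 1 fell, where 23.7% of all genes rose and 26.1% fell, 49.8% in all. Junb averaged 422 ± 32.6 CPM with both factors and 278 ± 14.0 CPM without, a log2 fold change of 0.61 ± 0.07 (edgeR adjusted p = 8.28e-08). Jun changed by 0.52 ± 0.08 (edgeR adjusted p = 6.13e-06) and Fos by 0.33 ± 0.09 (edgeR adjusted p = 0.00414). Fosl1 rose by 0.39 ± 0.15 (edgeR adjusted p = 0.0330) and Atf3 fell by 0.44 ± 0.15 on the log2 scale (edgeR adjusted p = 0.0150). Fosl2 (-0.01 ± 0.08), Jund (-0.01 ± 0.11) and Fosb (0.22 ± 0.25) did not pass the test (edgeR adjusted p = 0.948, 0.941 and 0.495), though Fosb was called with no filter (0.22, edgeR adjusted p = 0.0112). The opposite-strand genes Ccdc85b (at Fosl1), Prdx2 (at Junb) and Junos (at Jun) rose by 0.40 ± 0.08, 0.40 ± 0.07 and 2.14 ± 0.18. With both factors the fibroblast markers summed to 30863 to 35047 CPM, against 67450 to 75858 CPM unstimulated. Col1a1 averaged 8620 against 35894 CPM, and Col1a2, Col3a1, Pdgfrb and Thy1 were also lower. Vim, Pdpn, Pdgfra, Dcn and Fap had higher means with both factors. The pericyte and smooth muscle markers summed to 531 to 775 CPM, against 1242 to 1387 CPM. Acta2 averaged 375 against 994 CPM, and Cspg4, Mcam and Myh11 were also lower. Rgs5 (41.3 against 2.16 CPM), Abcc9 and Kcnj8 had higher means with both factors. Notch3 averaged 24.1 against 22.3 CPM by plain totals, and its order may differ on normalised sizes. The heat shock genes summed to 2603 to 2882 CPM, against 3114 to 3220 CPM. The part of all these genes in the results was not tested.

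The Fosl1 and Atf3 calls did not hold when some single libraries were left out. That of Fosl1 was lost without FGF2 plus OPN replicate 3 (log2 fold change 0.16, edgeR adjusted p = 0.296), without unstimulated replicate 1 (0.32, 0.133) or 2 (0.43, 0.05001), and in limma-voom (0.36, adjusted p = 0.0594). That of Atf3 was lost without FGF2 plus OPN replicate 1 (-0.32, 0.102) or unstimulated replicate 1 (-0.38, 0.0643), and with library totals alone (-0.30, 0.0858). With library totals alone in place of normalised sizes, the median of all genes moved to 0.14 from -0.01 and the split of called genes to 5253 higher and 2414 lower, against 3573 and 3940. Under those totals the log2 fold changes ran to 0.75 for Junb, 0.66 for Jun and 0.48 for Fos, still above that shifted median.

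Adding OPN to FGF2 raised most subunits, Fos and Fosl2 by the largest factors among the 8, and lowered Fosl1, Jun and Atf3. Relative to FGF2 alone, 5 subunits rose and 3 fell, where 27.3% of all genes rose and 31.2% fell, 58.4% in all. Fos averaged 398 ± 35.4 CPM with both factors and 111 ± 16.9 CPM with FGF2 alone, a log2 fold change of 1.84 ± 0.09 (edgeR adjusted p = 5.65e-13). Fosl2 changed by 1.63 ± 0.08 (edgeR adjusted p = 6.07e-14), Fosb by 1.13 ± 0.26 (edgeR adjusted p = 0.00199), Junb by 0.96 ± 0.07 (edgeR adjusted p = 2.56e-11) and Jund by 0.38 ± 0.11 (edgeR adjusted p = 0.00630). Fosl1 fell to 13.7 ± 3.60 CPM when both were given, against 33.1 ± 4.02 CPM for FGF2 alone (log2 fold change -1.28 ± 0.14, edgeR adjusted p = 1.25e-07). Jun fell by 0.27 ± 0.08 (edgeR adjusted p = 0.00472) and Atf3 by 0.39 ± 0.15 on the log2 scale (edgeR adjusted p = 0.0268). The opposite-strand genes changed by -1.41 ± 0.15 (Junos), 0.16 ± 0.07 (Prdx2) and 0.09 ± 0.08 (Ccdc85b, not called), and their part was not tested. Without FGF2 replicate 2 the Jun value was -0.15 (edgeR adjusted p = 0.0580), and with the groups fitted alone -0.24 (0.0549). The Atf3 call was lost without FGF2 replicate 2 (-0.35, 0.0672) or FGF2 plus OPN replicate 1 (-0.27, 0.155) or 2 (-0.39, 0.0537), with the groups alone (-0.36, 0.0534) and with library totals alone (-0.32, 0.0579).

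Adding FGF2 to OPN raised all 8 subunits, where 27.1% of all genes rose and 29.5% fell, 56.5% in all. Fos averaged 398 ± 35.4 CPM under FGF2 plus OPN and 23.9 ± 1.75 CPM under OPN alone, a log2 fold change of 4.05 ± 0.10 (edgeR adjusted p = 2.49e-17), and Fosb changed by 3.75 ± 0.29 (edgeR adjusted p = 1.76e-07). Junb and Jun changed by 1.85 ± 0.07 and 1.51 ± 0.08 (edgeR adjusted p = 1.63e-15 and 5.73e-13). Jund, Atf3, Fosl1 and Fosl2 changed by 0.69 ± 0.11, 0.56 ± 0.15, 0.52 ± 0.15 and 0.34 ± 0.08 (edgeR adjusted p = 3.79e-05, 0.00332, 0.00516 and 0.000565). The opposite-strand genes Junos, Ccdc85b and Prdx2 also rose, by 2.01 ± 0.17, 0.67 ± 0.08 and 0.47 ± 0.07, and their part was not tested. Without FGF2 plus OPN replicate 3 Fosl1 gave 0.29 (edgeR adjusted p = 0.0555). Under library totals alone the median of all genes was 0.12, and the lowest of the 8 values was 0.47 (Fosl2).

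The interaction tests whether the OPN effect depended on FGF2. It is the OPN effect with FGF2 minus the OPN effect without, and it was called for 8 of 8 subunits, 7 above 0 and Fosl1 below, where 24.1% of all genes lay above, 27.2% below and 51.2% were called. OPN changed Fos by 1.84 ± 0.09 in the presence of FGF2 and by -3.72 ± 0.10 in its absence, an interaction of 5.56 ± 0.14 on the log2 scale (edgeR adjusted p = 1.35e-17). For Fosb it was 4.66 ± 0.39 (edgeR adjusted p = 3.97e-07), for Junb 2.21 ± 0.09 (edgeR adjusted p = 2.09e-14) and for Fosl2 1.98 ± 0.11 (edgeR adjusted p = 1.47e-12). Jund and Jun gave 1.08 ± 0.16 and 0.72 ± 0.11 (edgeR adjusted p = 1.35e-05 and 8.00e-06). Fosl1, the only negative value among the 8, gave -1.15 ± 0.20 (edgeR adjusted p = 8.88e-05): OPN changed it by -1.28 ± 0.14 with FGF2 and by -0.13 ± 0.15 without. Atf3 gave 0.61 ± 0.21 (edgeR adjusted p = 0.0173), which was lost without unstimulated replicate 1 (0.54, 0.0505) or FGF2 plus OPN replicate 3 (0.49, 0.0569).

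**Figure D2:**
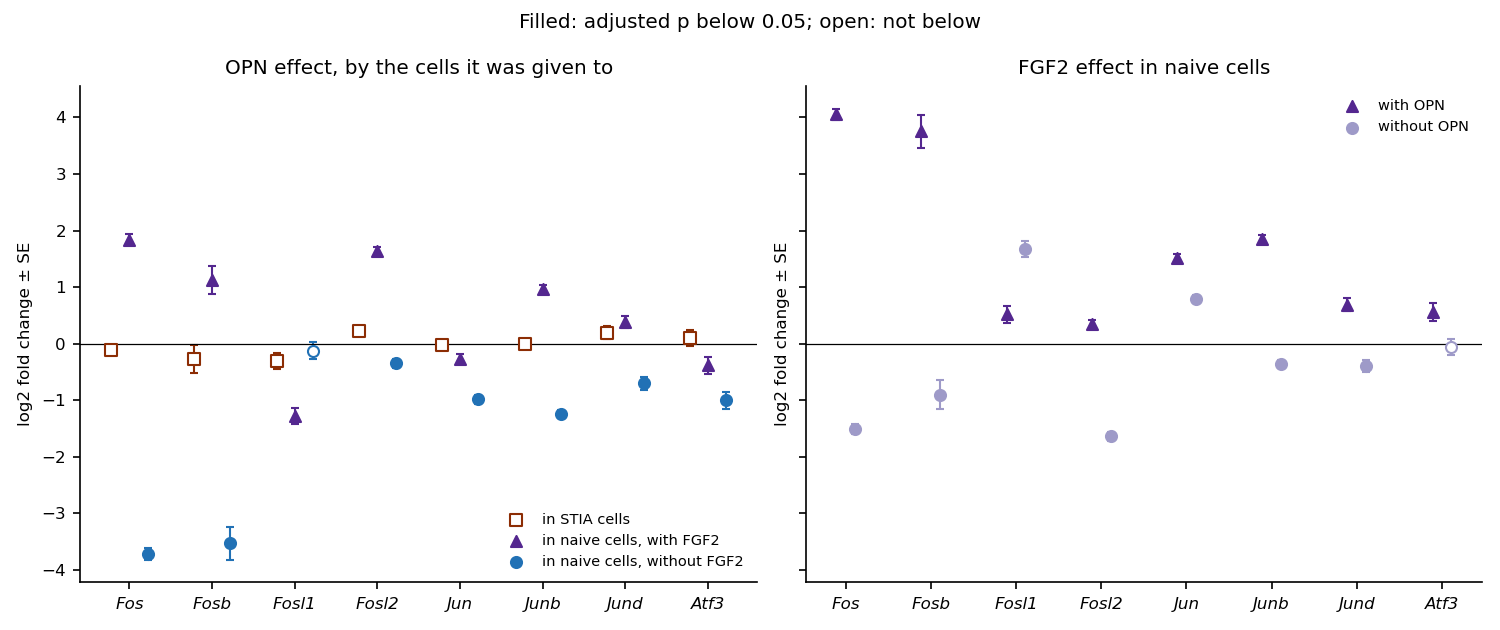
Log2 fold change ± SE of each subunit (vertical axes). Left, the OPN effect in STIA cells, in naive cells with FGF2 and in naive cells without FGF2; right, the FGF2 effect in naive cells with and without OPN; filled symbols have an edgeR adjusted p below 0.05. Fos lies at 1.84 and -3.72 for OPN with and without FGF2, and no STIA symbol on the left is filled.

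Unstimulated STIA cells held more Fosl1 and less Fosl2 and Junb than unstimulated naive cells. Of the 8 subunits 1 was higher and 2 were lower, where 18.6% of all genes were higher and 18.2% lower, 36.8% in all. Fosl1 averaged 17.7 ± 1.84 CPM in STIA and 10.4 ± 0.947 CPM in naive cells, a log2 fold change of 0.76 ± 0.15 (edgeR adjusted p = 0.000393). Fosl2 averaged 282 ± 8.31 CPM in STIA and 431 ± 17.7 CPM in naive cells, a change of -0.61 ± 0.08 (edgeR adjusted p = 2.04e-06). Junb changed by -0.23 ± 0.07 (edgeR adjusted p = 0.00745). Jund gave -0.28 ± 0.11, just outside the threshold (edgeR adjusted p = 0.0540), and it was called in DESeq2 (adjusted p = 0.0465), in limma-voom (0.0400), in edgeR with the groups fitted alone (0.0134) or with no filter (0.00133), and in edgeR without STIA replicate 3 (-0.39, 0.0164). Fos gave -0.19 ± 0.09 (edgeR adjusted p = 0.0992), which became 0.00610 with the groups alone and 0.0334 with no filter. Fosb gave 0.41 ± 0.25 (edgeR adjusted p = 0.230, and 2.47e-07 with no filter), Jun 0.05 ± 0.08 (edgeR adjusted p = 0.671) and Atf3 0.24 ± 0.14 (edgeR adjusted p = 0.202). Beside these values, the fibroblast markers summed to 49641 to 54138 CPM in STIA and 67450 to 75858 CPM in naive cells. Col1a1 averaged 25714 against 35894 CPM and Pdgfra 141 against 308 CPM, while Vim, Pdpn and Thy1 had higher means in STIA cells. The 8 pericyte and smooth muscle markers summed to 3073 to 3170 CPM in STIA and 1242 to 1387 CPM in naive cells. Most of the pericyte and smooth muscle sum was Acta2, at 2740 CPM in STIA and 994 CPM in naive cells, while Rgs5, Notch3, Abcc9 and Kcnj8 had lower means in STIA cells. The 4 skeletal muscle markers, nearly all Acta1, summed to 56.4 to 73.8 CPM in STIA and 5.50 to 7.46 CPM in naive cells. The part of these markers in the differences was not tested.

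In STIA cells OPN left every subunit short of the threshold. In the edgeR fit 0 of 8 were called, where 2.17% of all genes were (1.15% higher and 1.02% lower), and 2 had an unadjusted p below 0.05, Fosl1 and Fosl2. DESeq2 and limma-voom called 0 as well. Fos averaged 256 ± 24.6 CPM with OPN and 276 ± 6.86 CPM without, a log2 fold change of -0.11 ± 0.09 with a 95% interval of -0.30 to 0.08 (edgeR adjusted p = 0.638). Fosb gave -0.28 ± 0.25 (95% interval -0.82 to 0.27, edgeR adjusted p = 0.686). Fosl1 gave -0.31 ± 0.14 (edgeR adjusted p = 0.331) and Fosl2 0.22 ± 0.08 (edgeR adjusted p = 0.146), and neither overlapped between the groups, as was true of 25.4% of all genes. With the 2 groups fitted alone Fosl1 and Fosl2 were called (edgeR adjusted p = 0.0317 and 0.00374), and with no filter Fosb and Fosl2 were (0.00646 and 0.0493). Jun, Junb, Jund and Atf3 gave -0.03 ± 0.08, -0.01 ± 0.07, 0.19 ± 0.11 and 0.10 ± 0.14 (edgeR adjusted p = 0.916, 0.965, 0.466 and 0.803). Fibroblast markers summed to 57572 to 62383 CPM with OPN and 49641 to 54138 CPM without, though Vim and Pdpn were lower. Pericyte and smooth muscle markers summed to 2388 to 2500 and 3073 to 3170 CPM, though Rgs5, Abcc9, Notch3 and Mcam were higher. Skeletal muscle markers summed to 22.7 to 26.3 and 56.4 to 73.8 CPM, and heat shock genes to 3659 to 3780 and 3959 to 4004 CPM. The part of these genes in the results was not tested.

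The OPN effect differed between STIA and naive cells for 7 of the 8 subunits, all with a higher value in STIA cells, where 11.8% of all genes had a higher value and 22.3% were called. The difference of the log2 fold changes, STIA minus naive, was 3.61 ± 0.13 for Fos (edgeR adjusted p = 9.26e-14) and 3.25 ± 0.38 for Fosb (edgeR adjusted p = 6.02e-05). It was 1.24 ± 0.09 for Junb (edgeR adjusted p = 7.93e-09), 1.104 ± 0.20 for Atf3 (edgeR adjusted p = 0.000465) and 0.96 ± 0.11 for Jun (edgeR adjusted p = 1.81e-06). Jund and Fosl2 gave 0.89 ± 0.16 and 0.57 ± 0.11 (edgeR adjusted p = 0.000504 and 0.000530). For Fosl1 the difference was -0.18 ± 0.21, with a 95% interval of -0.61 to 0.25 (edgeR adjusted p = 0.586).

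With OPN in both, STIA cells held higher levels of 7 subunits than naive cells, where 21.1% of all genes were higher and 18.9% lower, 40% in all. Fos averaged 256 ± 24.6 CPM in STIA and 23.9 ± 1.75 CPM in naive cells, a log2 fold change of 3.41 ± 0.10 (edgeR adjusted p = 1.03e-15). Fosb averaged 163 ± 35.5 CPM in STIA and 12.9 ± 1.29 CPM in naive cells, a change of 3.66 ± 0.29 (edgeR adjusted p = 7.20e-07), and the pair ranked 23 (Fosb) and 31 (Fos) by size among all genes. Atf3, Junb and Jun were higher by 1.34 ± 0.15, 1.00 ± 0.07 and 1.00 ± 0.08 (edgeR adjusted p = 3.20e-07, 1.47e-10 and 1.76e-09). Jund and Fosl1 were higher by 0.61 ± 0.11 and 0.58 ± 0.15 (edgeR adjusted p = 0.000290 and 0.00341). Ccdc85b, on the strand opposite Fosl1, was higher by 0.34 ± 0.08, and its part was not tested. Junos and Prdx2 were not called. Fosl2 gave -0.04 ± 0.08 (edgeR adjusted p = 0.681), with 329 ± 10.9 CPM in STIA and 339 ± 30.0 CPM in naive cells. The pericyte and smooth muscle markers summed to 2388 to 2500 CPM in STIA and 1249 to 1498 CPM in naive cells with OPN. Acta2 made up most of it, at 2126 and 1151 CPM, while Rgs5, Notch3, Abcc9 and Kcnj8 had lower means in STIA cells. The part of these markers was not tested. This comparison and the difference of OPN effects share the libraries of naive cells with OPN.

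The makeup of each family was compared on a per-length scale, CPM per kilobase of exon (RPKM), with the summed exon length of the deposited table. The Fos family summed to 176 ± 15.5 RPKM in STIA cells with OPN and 187 ± 6.77 RPKM in unstimulated STIA cells. In naive cells the sum was 248 ± 16.1 RPKM with FGF2 plus OPN, 90.5 ± 14.4 RPKM with FGF2, 51.9 ± 3.05 RPKM with OPN and 208 ± 5.90 RPKM unstimulated (SD, n = 3 each). Fos was the largest member in 5 groups, with 52.3% to 68.2% of the sum. In naive cells with OPN Fosl2 was the largest, at 67.3% of the sum, against 21.4% in unstimulated naive cells, and Fos held 19.7% there, against 64.6%. Fosl1 held 18.1% of the sum with FGF2 alone and a group mean of 2.48% to 9.05% in the other groups. On plain CPM, which does not allow for length and so does not compare genes, Fosl2 would take 87.9% with OPN and 47.6% in unstimulated naive cells, and it would exceed Fos in all 6 groups; the per-length order assumes that each mRNA uses all annotated exons.

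The Jun family sum spanned a narrower range. It came to 203 ± 14.1 RPKM in STIA cells with OPN, 200.4 ± 10.6 RPKM in unstimulated STIA cells, 313 ± 16.5 RPKM with FGF2 plus OPN, 232 ± 22.8 RPKM with FGF2, 107 ± 3.69 RPKM with OPN and 224 ± 11.05 RPKM in unstimulated naive cells. Junb was the largest Jun family member in every group except naive cells with FGF2, with 47.4% to 58.6% of the sum. With FGF2 alone Jun held 46.1% and Junb 40.7% of the sum, against 27.9% and 54.0% in unstimulated naive cells. Jund held its largest share, 23.3%, in naive cells with OPN, where the other Jun genes were lowest.

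**Figure D3:**
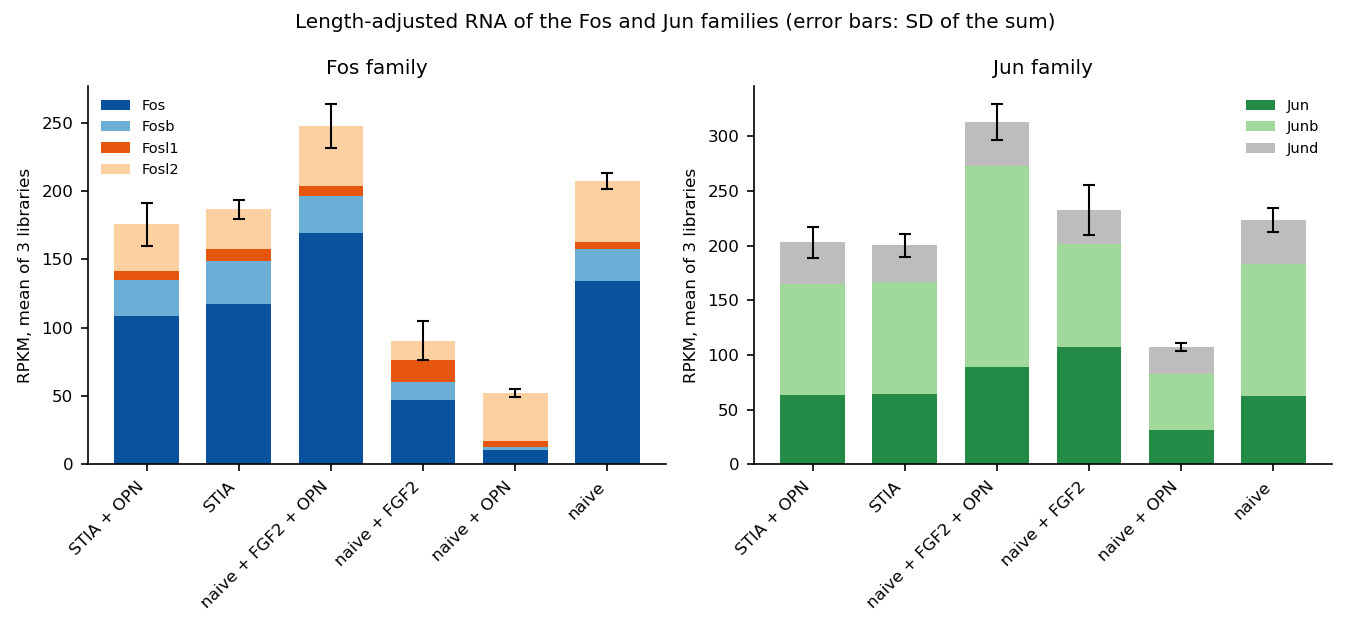
Stacked mean RPKM (vertical axes, from 0) of the Fos family members (left) and Jun family members (right) in each group; bars give the SD of the sum over 3 libraries. In naive cells with OPN the Fos family sum is 51.9 RPKM and mostly Fosl2, and the Jun family sum of 107 RPKM is the lowest of the 6 groups.

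The genes whose levels ran most like each subunit over the 18 libraries were taken from 10561 genes with a mean of at least 5 CPM, by Pearson correlation of log2 CPM. These values describe libraries that share 6 group means and carry no test. For Fos they were Egr1 (0.994), Ier2 (0.979) and Nfkbiz (0.957), other immediate early or rapidly induced genes. Egr1, a zinc finger factor that serum response factor also switches on, averaged 84.1 ± 4.53 CPM with OPN and 409 ± 14.5 CPM in unstimulated naive cells. For Fosb the nearest genes were Nfkbiz (0.969), Egr1 (0.964) and Dusp1 (0.924), and for Jund Ier2 (0.891), Btg2 (0.886) and Rcor2 (0.882). Junb ran most like Sphk1 (0.985), Zfp36 (0.976) and Fam171a2 (0.963), and Jun like Faap100 (0.978), Snapc2 (0.975) and Epn1 (0.973). Fosl2 ran most like Slc27a3 (0.984), Fzd1 (0.977) and Pfkfb3 (0.975), Fosl1 like Acsbg1 (0.977), Efhd2 (0.969) and Limk1 (0.968), and Atf3 like Ints5 (0.952), Cdr2l (0.928) and Ldha (0.919). Apart from the genes that Fos shares with Fosb and Jund, no gene stood in more than 1 of these short lists.

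**Figure D4:**
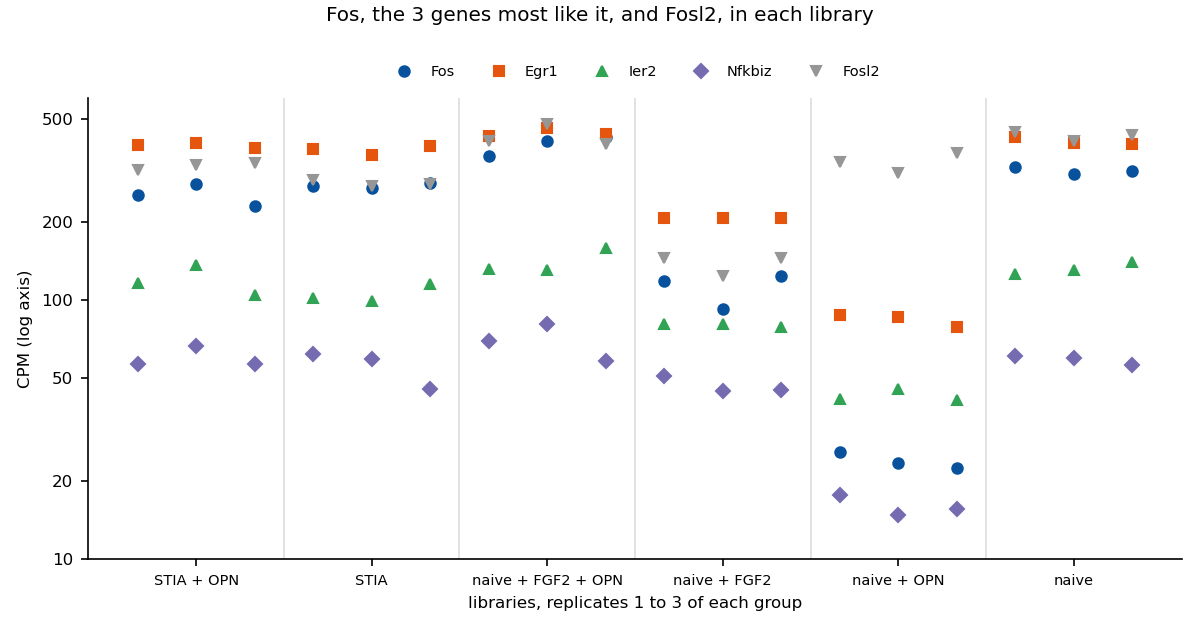
CPM (log axis) of Fos, of Egr1, Ier2 and Nfkbiz, the 3 genes most like it, and of Fosl2 in each library by group. Fos, Egr1, Ier2 and Nfkbiz are all lowest in naive cells with OPN (Egr1 mean 84.1 CPM), while Fosl2 lies at 308 to 368 CPM there.

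Among 17 other immediate early genes, 2 rose and 13 fell with OPN in naive cells, where 15.2% of all genes rose and 16.5% fell, with a median log2 fold change of -0.77, against 0.00 over all genes. Nr4a1, an orphan nuclear receptor, fell by 3.09 ± 0.16, Egr1 by 2.28 ± 0.06, Egr2 by 1.65 ± 0.12 and Ier2 by 1.63 ± 0.09 on the log2 scale. Their count with FGF2 was 4 up and 9 down, where 29.1% of all genes rose and 28.1% fell, and Egr3 rose by 2.79 ± 0.09 there. With both factors against unstimulated cells 6 rose and 7 fell, where 49.8% of all genes were called. With both against OPN alone 10 rose and 3 fell, where 27.1% of all genes rose and 29.5% fell. Between unstimulated STIA and naive cells 7 were higher and 2 lower, where 18.6% and 18.2% of all genes were, led by Ccn2 (connective tissue growth factor) at 1.80 ± 0.21. The OPN effect differed between STIA and naive cells for 13 of them, 11 with a higher value in STIA cells, where 22.3% of all genes were called and 11.8% had a higher value.

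The lists around AP-1 were counted in the same fit. Of 20 kinases and serum response factors upstream of AP-1, 9 rose and 3 fell with FGF2, where 29.1% of all genes rose and 28.1% fell. The 12 called in all were near the 57.1% of all genes called there. Among those that rose were the JNK pathway kinase Map3k5 (1.28 ± 0.13) and the ETS factor Elk3 (1.13 ± 0.06). With OPN 0 of the 20 rose and 7 fell, where 15.2% of all genes rose and 16.5% fell, 31.7% in all. The largest fall, that of Rps6ka1 (0.36 ± 0.10), lost its call without unstimulated replicate 3 or OPN replicate 2 (edgeR adjusted p = 0.0526 and 0.0504). Map3k1, another of the 7, lost its call in 9 of the alternatives. In STIA cells 5 were higher and 1 lower, where 18.6% and 18.2% of all genes were, 36.8% in all, with Srf, the serum response factor itself, at 0.71 ± 0.10. Of 15 related leucine zipper partners 12 were tested: FGF2 raised 4 and lowered 5, where 29.1% of all genes rose and 28.1% fell, with Maf at -2.73 ± 0.11 and Jdp2, a repressor that binds Jun proteins, at -2.17 ± 0.10. OPN raised 1 of the 12 and lowered 1, where 31.7% of all genes were called, and Maf, the one that rose (0.31 ± 0.10), lost its call without OPN replicate 1 or 3 or unstimulated replicate 2.

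Of 18 negative regulators of this signalling, 9 rose and 6 fell with FGF2, where 29.1% of all genes rose and 28.1% fell. The ERK feedback inhibitor Spry4 rose by 4.32 ± 0.15 and the MAP kinase phosphatases Dusp4 and Dusp5 by 4.12 ± 0.15 and 3.30 ± 0.14. With OPN 3 rose and 8 fell, where 15.2% of all genes rose and 16.5% fell, among them Zfp36, whose protein speeds the decay of AU-rich mRNAs, at -1.77 ± 0.07, and the phosphatase Dusp1 at -1.67 ± 0.10. Relative to FGF2 alone, adding OPN raised 4 and lowered 10, where 58.4% of all genes were called, with Spry4 at -3.12 ± 0.14. In STIA cells 6 were higher and 3 lower, where 36.8% of all genes were called, with Dusp4 at 2.25 ± 0.14. OPN lowered Dusp4 by 0.80 ± 0.13 in STIA cells, 1 of 2 calls in that list, where 2.17% of all genes were called.

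Of 20 chosen AP-1 target genes 15 rose and 2 fell with FGF2, where 29.1% of all genes rose and 28.1% fell. The median log2 fold change was 1.06 over the list and 0.01 over all genes. Of the subunits, Fosl1 and Jun rose there, and Fos, Fosb, Fosl2, Junb and Jund fell. The stromelysin Mmp3 rose by 5.65 ± 0.34, and Mmp10 stood at 148 ± 48.0 CPM with FGF2 and, near the level of 3 counts, at 0.0910 ± 0.0417 CPM in unstimulated naive cells. Il6 fell by 3.73 ± 0.34 on the log2 scale. Adding OPN to FGF2 raised 1 and lowered 17 of the 20, with a median of -1.44, where 27.3% of all genes rose and 31.2% fell. Mmp10 changed by -5.54 ± 0.22, the D-type cyclin Ccnd1 by -2.67 ± 0.13 and the urokinase receptor Plaur by -2.60 ± 0.11. Of the subunits, Fosl1 (by 1.28 ± 0.14 on the log2 scale), Jun and Atf3 fell in that comparison, and Fos, Fosb, Fosl2, Junb and Jund rose. The part of any subunit in the target changes was not tested. OPN alone raised 4 and lowered 9 of the targets, where 15.2% of all genes rose and 16.5% fell, with Il6 at -3.51 ± 0.32, the urokinase gene Plau at -1.59 ± 0.12 and Mmp3 at -1.47 ± 0.34. In STIA cells 13 were higher and 4 lower, where 18.6% and 18.2% of all genes were, with the prostaglandin synthase gene Ptgs2 at 1.77 ± 0.19 and the collagenase gene Mmp13 at -1.96 ± 0.33. Of the 10 heat shock genes 8 were higher in STIA cells and 0 lower, against the same shares, and their summed level was 3959 to 4004 CPM in STIA and 3114 to 3220 CPM in naive cells.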

How the data were processed

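RNA of sorted synovial fibroblasts was sequenced in 18 libraries, 3 a group. The authors deposited raw read counts per gene and the exon length of each gene in bases; per the submitters' processing notes the tools were STAR and featureCounts with GRCm38 (mm10), with versions, annotation and strand setting not given in the sources used here. Gene IDs were matched to symbols of GENCODE M21 (32158 of 32285 IDs; counts without a symbol made up 0.0294% of all). The 8 members and the other lists were chosen with earlier results of these data known; Mkl1 and Mkl2 were read as Mrtfa and Mrtfb.

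Counts were fitted with edgeR 4.0.16 in R 4.3.3 (TMM sizes, filterByExpr, robust quasi-likelihood F test, group means of all 18 libraries, 15072 genes), with p-values adjusted by Benjamini-Hochberg over all tested genes and called below 0.05. The fit's overall biological coefficient of variation was 7.99%. CPM used TMM sizes, except that cell type markers used plain library totals. RPKM divided the CPM on TMM sizes by the deposited exon length in kilobases. DESeq2 1.42.0, limma-voom (limma 3.58.1), library totals alone, no filter, the compared groups alone, a replicate block and leaving out each library were alternatives. All members were named in every comparison, and from each other list at most 4 called genes with the largest fold change; likeness used Pearson correlation of log2 CPM with a prior count of 2. The fit was tested on simulated data. Replicate numbers were given by the labels, but same-numbered libraries correlated from -0.104 to 0.199, with 2 of 45 correlations above 0.1, so they were not treated as pairs. None of the 18 replicate pairs held identical counts, and all differed by more than sampling noise. Figures were drawn with matplotlib 3.10.9.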

Additional observations from a re-analysis of the deposited data

Results flagged for a closer look

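The OPN effect differed between naive cells with and without FGF2 for all 8 subunits, by the test of the difference itself. OPN with FGF2 minus OPN without gave 5.56 ± 0.14 for Fos, 4.66 ± 0.39 for Fosb, -1.15 ± 0.20 for Fosl1 and 1.98 ± 0.11 for Fosl2 (log2 ± SE). It gave 0.72 ± 0.11 for Jun, 2.21 ± 0.09 for Junb, 1.08 ± 0.16 for Jund and 0.61 ± 0.21 for Atf3. Fosl1 was the exception in sign: OPN changed it by -1.28 ± 0.14 with FGF2 and by -0.13 ± 0.15 without.

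The OPN effect also differed between STIA and naive cells for 7 subunits. The STIA effect minus the naive effect was 3.61 ± 0.13 for Fos, 3.25 ± 0.38 for Fosb and 0.57 ± 0.11 for Fosl2. It was 0.96 ± 0.11 for Jun, 1.24 ± 0.09 for Junb, 0.89 ± 0.16 for Jund and 1.104 ± 0.20 for Atf3. Both sets of differences rest on the same libraries of naive cells with OPN and of unstimulated naive cells.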

How the results depend on the processing

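Of 1152 alternative values for the 88 results on single subunits, 1101 kept their direction and side of the threshold, 21 lost the call, 13 gained it and 17 changed sign, the last only where the subunit had not been called. The count of subunits called moved by over 1.5 times in 3 comparisons: for FGF2 plus OPN against unstimulated cells, 5 became 3 without unstimulated replicate 1 (3 to 5 over all left-out libraries); for STIA against naive cells, 3 became 6 with no filter and 5 with the compared groups alone; and for OPN in STIA cells, 0 became 2 under each of those settings. For that last comparison the count over all genes was 327, against 626 in DESeq2, 948 with no filter and 1312 with the groups alone. It ran from 39 to 221 without 1 of the 6 STIA libraries and was 617 without FGF2 replicate 2, which is in neither group. For FGF2 plus OPN against OPN alone, library totals alone moved the split of called genes to 5433 higher and 3060 lower, against 4079 and 4443. The cause of these changes was not tested.

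Changed signs were as follows (log2 fold change). With FGF2 plus OPN against unstimulated cells, Fosl2 gave 0.14 with library totals, 0.0010 in DESeq2 and 0.0094 with the groups alone, and ran from -0.089 to 0.040 over left-out libraries; Jund gave 0.13 with library totals and 0.0042 with the groups alone, and ran from -0.063 to 0.065. Atf3 with FGF2 gave 0.024 with library totals and ran from -0.093 to 0.013. For OPN in STIA cells, leaving out libraries gave -0.091 to 0.042 for Jun, -0.052 to 0.027 for Junb and -0.047 to 0.27 for Atf3. Fosl2 between STIA and naive cells with OPN ran from -0.11 to 0.017. A fit with the replicate block left the call and direction of all 88 results as they were and gave the same count of subunits called in each comparison, for example 7 for OPN in naive cells. With 3 libraries a group, the SE of a log2 fold change was 0.25 to 0.29 for Fosb and 0.07 for Junb, so smaller changes can be detected for Junb than for Fosb.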
